A study of Mus musculus with 10 samples.

Results

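The genes described here are 10 genes of the NF-kB pathway: the 5 Rel family transcription factors (Rela, Nfkb1, Nfkb2, Rel and Relb), 4 inhibitors (Nfkbia, Nfkbib, Nfkbie and Tnfaip3) and the kinase Ikbkb. They were taken by symbol from an RNA-seq table of 53974 genes, where all 10 had a row, and from an ATAC-seq comparison of 16600 regions, where 8 regions lay within 1000 bp of an end of 7 of them. The cells came from retinas of C57BL/6 mice aged 8 to 10 weeks whose Arid1a gene, a subunit of the SWI/SNF chromatin remodelling complex, is flanked by loxP sites (Arid1a fl/fl). The group labelled WT (genotype label Arid1a fl/fl) received AAV2-GFP in the eye, and the group labelled cKO (genotype label Arid1a del/del) received AAV2-Cre, a virus that carries the recombinase. Per the study's methods both viruses use the CMV promoter, which is not specific to RGCs, and the titer of AAV2-GFP was higher than that of AAV2-Cre. Virus and titer go with the label, so their effects cannot be told apart from that of the deletion. All mice, controls included, had the optic nerve crushed 2 weeks later, and 3 days after the crush DAPI-negative, Thy1.2-positive cells were sorted from 4 to 5 pooled retinas per sample to enrich retinal ganglion cells (RGCs). RNA-seq was made on 3 libraries per label and ATAC-seq, which reads open chromatin, on 2 per label. RNA levels are given as TPM, a share of all transcripts that is corrected for their length and keeps no sequencing depth.

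NF-kB is a family of dimeric transcription factors that are held in the cytoplasm by inhibitors of the IkB class. Signals from TNF, interleukin-1, CD40 and Toll-like receptors activate the IkB kinase, which marks the inhibitors for destruction, so that the dimers enter the nucleus and switch on genes of inflammation and survival. Several of those target genes encode the inhibitors and the factors themselves, which makes the pathway a feedback loop. In the injured retina it is known in glia, microglia and infiltrating immune cells, and it also acts in neurons.

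The DNA just before the start sites is shown because the regions of open chromatin described further on lie over it and because it holds the letters that NF-kB dimers are known to bind. The RefSeq promoter table (GRCm38.p6) held 300 bases around start sites of 7 of the 10 genes, and was searched on both strands for the NF-kB (kappaB) consensus, that is GGG, a purine, any 2 bases, 2 pyrimidines and CC. In 5 of the 7 genes (Nfkb2, Rel, Nfkbia, Nfkbie and Tnfaip3) at least 1 window held a match, whereas 8.46% of the 32851 windows in the table did and 12.4% of the 11687 tested genes with a window did. No match was present in the windows of Rela and Nfkbib. The consensus is rich in G and C, and so were the windows with a match (56.7% to 75%, against a median of 52.7% over all windows). Those of Rela and Nfkbib had 71.3% and 56.3%. Nfkb2 had 3 windows and Tnfaip3 had 2, so these shares are not set against windows of like make-up or number. Below are the 130 bases before the start site, 5′ to 3′ along the gene, with the bases of kappaB matches in capitals. A match is a description of the letters and not a measured binding site.
Nfkbia, chr12:55492648-55492777 (minus strand): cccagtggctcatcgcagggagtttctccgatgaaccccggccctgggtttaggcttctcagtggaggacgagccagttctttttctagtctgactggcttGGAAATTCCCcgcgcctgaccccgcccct
Nfkbie, chr17:45555570-45555699 (plus strand): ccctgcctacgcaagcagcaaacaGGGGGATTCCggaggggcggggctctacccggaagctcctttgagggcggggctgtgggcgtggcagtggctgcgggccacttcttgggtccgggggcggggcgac
Rel, chr11:23770970-23771099 (minus strand): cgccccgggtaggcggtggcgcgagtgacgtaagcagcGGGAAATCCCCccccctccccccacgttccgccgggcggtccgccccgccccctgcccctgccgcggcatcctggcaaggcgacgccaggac
Tnfaip3, chr10:19015411-19015540 (minus strand): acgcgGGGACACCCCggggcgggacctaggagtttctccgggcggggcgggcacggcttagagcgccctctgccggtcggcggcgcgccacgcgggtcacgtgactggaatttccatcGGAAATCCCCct
In Nfkbia, which encodes IkB-alpha, 1 match stood 29 to 20 bases before the start site. Nfkbie, which encodes IkB-epsilon, held 1 match 106 to 97 bases before it. The run of capitals in Rel is 2 overlapping matches. Tnfaip3, which encodes the ubiquitin-editing enzyme A20, had a match at each end of the stretch, and the window of its other start site had none. Nfkb2, which encodes p100, the precursor of p52, had the most matches. Before its first start site in the table (chr19:46304737) stood GGGAATTCCCC, made of overlapping matches at 39 to 29 bases, and GGGGCTTTCC at 11 to 2 bases, while GGAATGTCCC and GGGACTTTCC lay near its other start sites. The Nfkb2 start sites lie inside the RefSeq gene interval, which begins upstream of them, and the stretch before the first is also overlapped by the gene model 4833438C02Rik, so reads of the 2 genes may not be fully separable.

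The labels and the sorted cell type were first checked. Arid1a was 18.8, 11.7 and 14.1 TPM in the libraries labelled WT and 18.8, 27.9 and 25 TPM in those labelled cKO, so its level was not lower under the cKO label (log2 difference 0.66, SE 0.28; limma, adjusted p = 0.274). The value sums the whole gene and does not show the deleted part on its own. Every direction given here is therefore a direction between labels. The sum of 12 RGC markers was 148 to 206 TPM under WT and 234 to 262 TPM under cKO. Among them Thy1, the sorting antigen, was 51.9 to 88.5 TPM under WT and 94.4 to 129 TPM under cKO, and Isl1 was 51.9 to 98.0 against 55.8 to 104 TPM. The RGC factor Pou4f2 was listed at 0 in 5 libraries and at 0.143 TPM in cKO replicate 3, and the RGC marker Rbpms reached at most 6.43 TPM. The sum of 8 rod photoreceptor markers was 12190 to 17033 TPM under WT and 24921 to 47557 TPM under cKO. The sum of 12 T cell markers was 392 to 1152 against 109 to 253 TPM, that of 7 B cell markers 32.7 to 115 against 10.99 to 22.8 TPM, and that of 12 myeloid markers 2282 to 3548 against 967 to 1377 TPM. These sums therefore did not overlap between labels, rod and RGC sums being higher and immune sums lower under cKO. Most of the RGC sum was Thy1 and Isl1, and the RGC list was mixed gene by gene. Of its 10 tested genes 3 were below 0, Rbpms (log2 difference −0.41), Pou4f1 (−0.64) and Sncg (−0.83), and all 3 overlapped between labels. The other 7 were above 0. Of these, 3 were higher without overlap, Tubb3 (1.01), Stmn2 (0.97) and Thy1 (0.71), against 18.7% of all genes. The median over the 10 was 0.18, near that of all genes (0.16). Of Müller glia and astrocyte markers the sums overlapped (11577 to 21034 against 7469 to 17993 TPM), as did those of endothelial markers (299 to 663 against 247 to 673 TPM). Gene by gene, all 8 Müller glia and astrocyte markers had an estimate below 0 (median −0.61), against 38.9% of all genes. Of these, 2 were lower without overlap, Gfap (−1.64) and Vim (−0.86). All 4 tested endothelial markers were also below 0 (median −0.78). In sorted bulk RNA, fewer cells of a type and less RNA per cell cannot be told apart, and the part these markers have in the NF-kB differences was not tested.

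WT replicate 2 stood apart among the WT libraries. It had 20942 genes above 0, against 23764 to 24963 in the other 5 libraries, and the lowest T cell, B cell and myeloid sums of its group. The RNA counts of members and of pathway lists are therefore also given without it. It was also the lowest WT library for every member except Rela, so leaving it out raises the WT means of those members.

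All 10 genes passed the filter of 1 TPM in at least 3 libraries and were compared among 17555 genes tested in 1 limma fit on log2(TPM + 1). Nfkbia, Nfkb2 and Nfkbie had the largest differences, all lower under cKO, and Ikbkb had almost none. No member passed an adjusted p of 0.05, and across all genes 0 were called lower (0%) and 1 higher (0.0057%), while an unadjusted p under 0.05 was reached by 1133 lower and 2095 higher genes. At that unadjusted level 3 of 10 members were lower and 0 higher, against 6.45% and 11.9% of all genes. With the replicate numbers as a block, 5 members were lower (Nfkb2, Rela, Relb, Nfkbia and Nfkbie), against 8.52% of all genes. Without WT replicate 2 the number was 6 (Nfkb2, Rel, Relb, Nfkbia, Nfkbie and Tnfaip3), against 7.70%. Leaving out any other single library it was 2 to 4, against 4.12% to 7.18%. The estimate was below 0 for 9 of 10 members and for 38.9% of all genes, and without WT replicate 2 for 10 of 10 and 31.6%. The median difference of the members was −0.62, whereas that of all genes was 0.16. After scaling the libraries by the median of ratios, which moves the median of all genes to 0.01, the median of the members was −0.77.

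**Figure D1:**
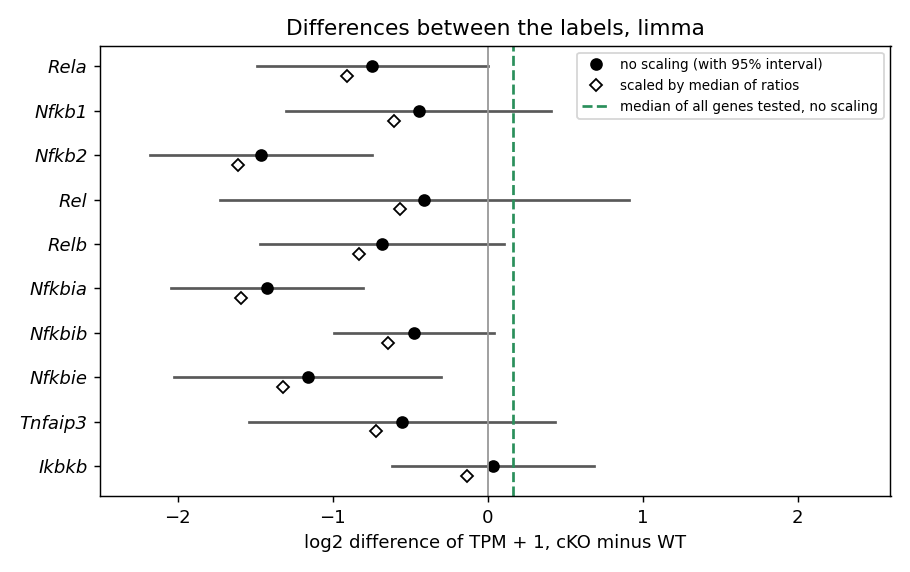
Log2 difference of TPM + 1 between labels (x axis) for the 10 genes, with the 95% interval of the limma fit as a line and the value after scaling as an open diamond. Intervals of Nfkb2, Nfkbia and Nfkbie end below 0, those of the other 7 genes include it, and all 10 points lie left of the dashed median of all genes tested (0.16).

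Rela encodes p65, the main activating subunit. It was 37.4, 60.6 and 32.0 TPM in WT replicates 1, 2 and 3 and 31.5, 23.9 and 19.5 TPM in cKO replicates 1, 2 and 3. The ranges did not overlap, but the lowest WT value (32.0 TPM) was close to the highest cKO value (31.5 TPM), and WT replicate 2 was far above the others. The log2 difference was −0.74 (SE 0.32; limma, adjusted p = 0.272; exact permutation p = 0.1, the smallest that 3 against 3 can give).

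Nfkb1 encodes p105, the precursor of p50. Its levels were 17.7, 8.43 and 15.6 TPM under WT and 8.99, 7.32 and 13.02 TPM under cKO. WT replicate 2 lay within the cKO range, so the labels overlapped (log2 difference −0.44, SE 0.36; limma, adjusted p = 0.549). Nfkb2, by contrast, was 14.9, 14.1 and 19.1 TPM in WT and 5.42, 3.58 and 6.83 TPM in cKO libraries. Every WT library was above every cKO library, by 3.04-fold in the means (log2 difference −1.46, SE 0.30; limma, adjusted p = 0.124; exact permutation p = 0.1). With the replicate block the adjusted p of Nfkb2 was 0.0762. The ratio of Nfkb2 to Nfkb1 was 0.845, 1.67 and 1.23 under WT and 0.603, 0.490 and 0.524 under cKO. Each cKO ratio was thus below each WT ratio.

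Rel encodes c-Rel, a subunit used mainly by lymphoid and myeloid cells. It was 10.6, 2.90 and 17.2 TPM under WT and 6.80, 4.93 and 6.65 TPM under cKO. The WT libraries held both the lowest and the highest value of the 6, and the log2 difference of −0.41 was smaller than its SE of 0.56 (limma, adjusted p = 0.726). Without WT replicate 2 it was −1.04 (limma, adjusted p = 0.161), and without WT replicate 3 it was 0.070. Relb encodes the partner of p52 in the noncanonical pathway. It was 11.5, 5.93 and 10.5 TPM under WT and 6.41, 4.14 and 5.39 TPM under cKO. Only WT replicate 2 lay within the cKO range (log2 difference −0.68, SE 0.33; limma, adjusted p = 0.324).

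Summed over the 5 factors, the Rel family stood at 92.2, 91.9 and 94.5 TPM in WT and 59.1, 43.9 and 51.4 TPM in cKO libraries. The WT sums were nearly equal although the single factors were not, since Rela was high in WT replicate 2 where Nfkb1, Rel and Relb were low. Rela made up 65.9% of the sum in WT replicate 2 and 33.9% to 54.5% in the other 5 libraries. Nfkb2 was the only factor whose share did not overlap, with 15.3% to 20.2% under WT and 8.17% to 13.3% under cKO.

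Nfkbia was the most abundant of the 10 genes under both labels. It stood at 351, 257 and 407 TPM in WT and 140, 96.7 and 139 TPM in cKO libraries. All WT values were above all cKO values, by 2.70-fold in the means (log2 difference −1.42, SE 0.26; limma, adjusted p = 0.124; exact permutation p = 0.1). With the replicate block the adjusted p of Nfkbia was 0.0633. Nfkbie was 26.5, 15.7 and 32.8 TPM under WT and 9.28, 7.67 and 14.6 TPM under cKO. The ranges were separated by a narrow gap between WT replicate 2 and cKO replicate 3 (2.38-fold in the means; log2 difference −1.16, SE 0.37; limma, adjusted p = 0.178). Nfkbib encodes IkB-beta, whose gene is known to respond less to NF-kB than Nfkbia. It was 38.9, 36.2 and 38.3 TPM under WT and 28.3, 30.6 and 22.4 TPM under cKO. The WT values lay close together and above all cKO values, but by 1.39-fold (log2 difference −0.47, SE 0.22; limma, adjusted p = 0.300).

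The sum of the 3 IkB genes was 417, 309 and 478 TPM under WT and 177, 135 and 176 TPM under cKO. Nfkbia made up 83.2% to 85.1% of it under WT and 71.7% to 78.9% under cKO, so its share was also lower without overlap. The IkB sum was 3.36 to 5.06 times the Rel family sum in WT and 3.0 to 3.42 times in cKO libraries, ranges that overlapped.

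Tnfaip3 removes activating ubiquitin chains from signalling proteins and so limits the response upstream. It was 82.6, 30.05 and 69.7 TPM under WT and 43.0, 45.9 and 27.2 TPM under cKO. WT replicate 2 lay below 2 of the cKO libraries, while the other WT values were above all 3 (log2 difference −0.55, SE 0.42; limma, adjusted p = 0.518). Without WT replicate 2 the difference was −0.99 (limma, adjusted p = 0.157). Ikbkb encodes the catalytic subunit IKK-beta. It was 58.2, 40.5 and 73.6 TPM under WT and 51.1, 54.3 and 67.6 TPM under cKO, with nearly equal means (57.4 and 57.6 TPM). Its log2 difference was 0.04 (95% interval −0.61 to 0.68; limma, adjusted p = 0.960), and it turned to −0.13 after scaling. The kinase's other subunits, Chuk (log2 difference 0.38, SE 0.33; limma, adjusted p = 0.569) and Ikbkg (0.19, SE 0.26; limma, adjusted p = 0.731), also overlapped between labels.

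**Figure D2:**
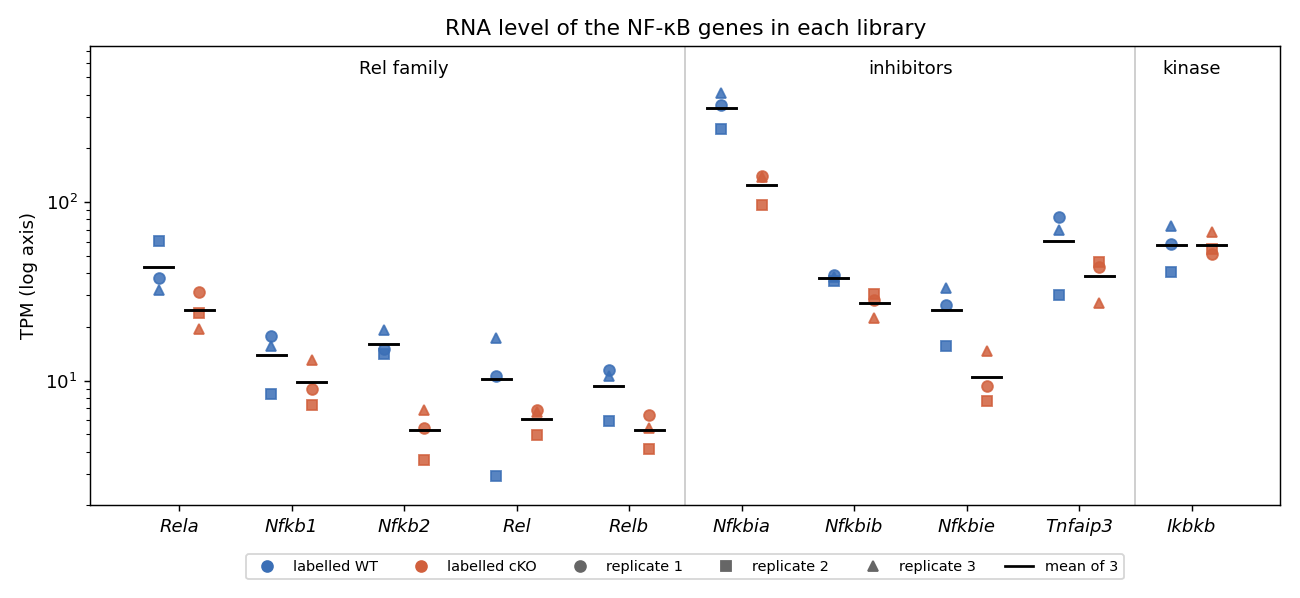
RNA level in TPM (log axis) of the 10 genes in each of the 6 libraries, with the symbol giving the replicate and a bar the mean of 3. WT points lie above all cKO points for Rela, Nfkb2, Nfkbia, Nfkbib and Nfkbie, and the square of WT replicate 2 is the lowest WT point for every gene except Rela.

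The ranges did not overlap, with cKO lower, for 5 of 10 members (Rela, Nfkb2, Nfkbia, Nfkbib and Nfkbie), against 7.18% of all genes lower and 18.7% higher in the same way. After scaling the number was again 5, against 11.2% of all genes. Without WT replicate 2 it was 9, all but Ikbkb, against 11.7%.

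Ordered by mean TPM under WT, the genes ran Nfkbia, Tnfaip3, Ikbkb, Rela, Nfkbib, Nfkbie, Nfkb2, Nfkb1, Rel and Relb. The range of Nfkbia was clear of the next gene, and that of Nfkbib was clear of Nfkbie, while the other neighbours overlapped. Under cKO the order was Nfkbia, Ikbkb, Tnfaip3, Nfkbib, Rela, Nfkbie, Nfkb1, Rel, Relb and Nfkb2, so Nfkb2 moved from the seventh place to the last, where its range overlapped that of Relb. The ranges of Nfkbia, Ikbkb, Rela and Nfkb1 were clear of the next gene in that order, and the other neighbours overlapped. The genes whose standardized levels over the 6 libraries were most like those of Relb were Icos, Dock8 and Trim30d, with root mean square differences of 0.058 to 0.068 SD. For Nfkbia they were Myc, Tspan32 and Fas (0.068 to 0.081 SD), for Rel Adi1, Tlr1 and Gm20696 (0.18 to 0.19 SD), and for Ikbkb AI506816, Prrg4 and 9530003O04Rik (0.10 to 0.12 SD).

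Chromatin at the same genes was compared through the authors' group values, the log2 mean of normalized ATAC-seq reads per region, of which there is 1 per label. No spread between libraries and no test can be had from them. All 7 members with a region had at least 1 that was lower by 1 or more on the log2 scale under cKO. That was so for 94.9% of the 7992 tested genes with a region at an end, a share close to that of the members. Of all genes with a position, 51.5% had such a region. The median difference of the members was −3.15, that of tested genes −2.65, and that of all 16600 regions −1.57. Of all regions 59.8% were lower by 1 or more, and of those at gene ends 93.1%.

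The largest ATAC-seq differences were at the start sites of Nfkbib (chr7:28766271-28767245) and Rel (chr11:23770641-23771567). The Nfkbib region went from 55.7 mean reads under WT to 3.61 under cKO (log2 difference −3.95), and it also lies at an end of Sirt2. The Rel region went from 54.2 to 3.86 mean reads (log2 difference −3.81). Both were between the 5th and the 95th percentile of gene-end regions (−4.31 and −0.77).

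At Relb the region chr7:19628345-19629407 had 75.6 mean reads under WT and 6.82 under cKO (log2 difference −3.47). At Tnfaip3 the region chr10:19014922-19015785 had 62.7 and 7.06 mean reads (log2 difference −3.15), and at Nfkbia chr12:55491471-55492877 had 67.2 and 7.73 (log2 difference −3.12) and also lies at an end of the gene model Gm36634. The Relb value was beyond the lower quartile of gene-end regions (−3.28), and those of Tnfaip3 and Nfkbia were between it and the median (−2.58). The regions of Rel, Tnfaip3 and Nfkbia cover the kappaB matches printed above.

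Rela and Nfkbie were the least different. The Rela region (chr19:5637112-5637936) had 29.4 mean reads under WT and 7.16 under cKO (log2 difference −2.04). At the Nfkbie start site the region chr17:45555547-45556199 had 18 and 8.06 mean reads (log2 difference −1.16), and it covers the kappaB match 106 to 97 bases before the start. The region beyond the Nfkbie 3′ end (chr17:45563586-45564298) had 26.7 and 8.28 mean reads (log2 difference −1.69) and lies within 1000 bp of an end of Slc35b2 as well. The Nfkbie start region was thus among the weakest at gene ends under WT (percentile 17.3) and among the smallest differences, while its RNA difference was the third largest of the 10. Under cKO the 8 regions at ends of members all had low log2 values, 1.85 to 3.05, beside a median of 2.62 at gene ends. The regions of Rela and Nfkbie had the lowest WT values among them, and whether this bears on their smaller differences was not tested.

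Nfkb2 had no region within 1000 bp of an end of its RefSeq interval, but the region chr19:46304309-46305786 covered 2 of its 3 start sites in the promoter table. With it, all 7 members in that table had a region within 1000 bp of a start site, against 58.3% of tested genes. The Nfkb2 region had 74.5 mean reads under WT and 9.51 under cKO (log2 difference −2.97), and every kappaB match of its 3 windows lies within it.

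**Figure D3:**
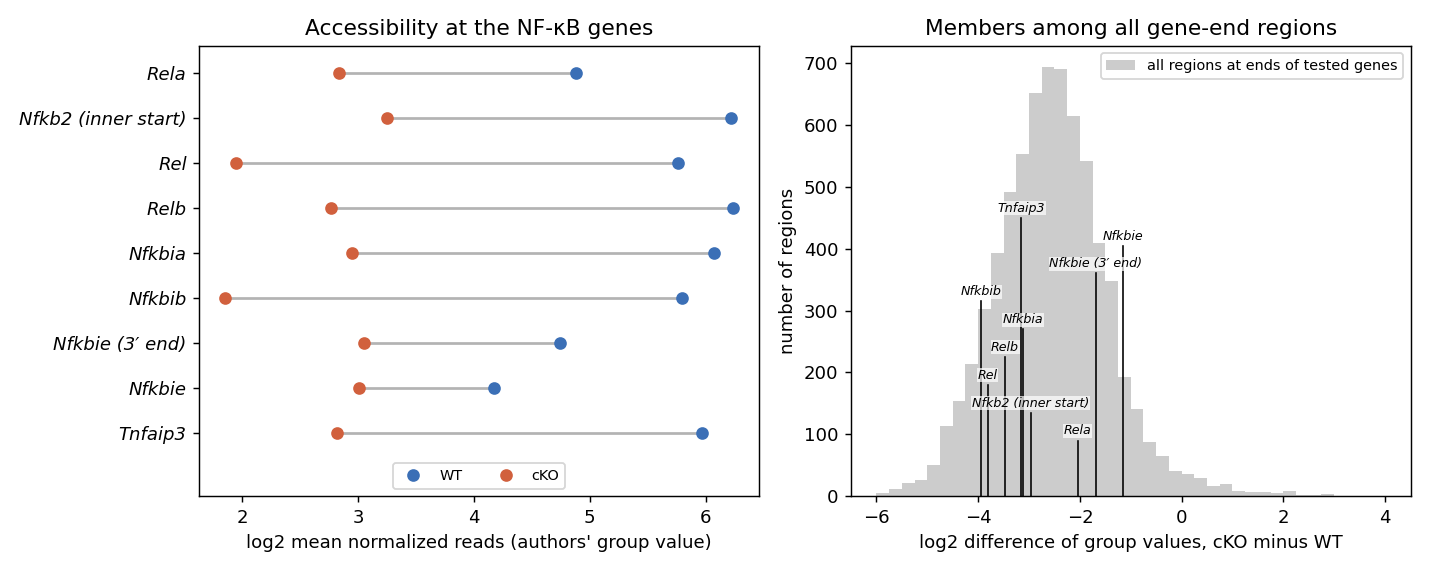
Left, the authors' log2 mean normalized ATAC-seq reads per label (x axis) at each region of the NF-kB genes. Right, the log2 differences of those regions as labelled lines over the histogram of all 6966 regions at ends of tested genes (y axis, number of regions); the lines run from −3.95 (Nfkbib) to −1.16 (Nfkbie), within the bulk of the histogram.

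Peaks called in each library separately show the same regions without pooling. Within 1000 bp of an end, 9 of 10 members had a peak in WT replicate 1 and 7 in WT replicate 2, against 3 in cKO replicate 1 and 1 in cKO replicate 2. Of all tested genes 65.1% and 58.2% had one in the WT libraries and 13.6% and 13.9% in the cKO libraries. The total numbers of peaks overlapped between labels (76522 and 42265 under WT, 55902 and 68317 under cKO), but 12.7% and 20.0% of the WT peaks lay at gene ends, against 3.64% and 3.05% of the cKO peaks.

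Within 1000 bp of a start site, all 7 members in the promoter table had a peak in each WT library, while 0 had one in cKO replicate 1 and 1 in cKO replicate 2. Of all 11687 tested genes with a start site, 71.7% and 65.2% had one in the WT libraries and 9.4% and 9.1% in the cKO libraries. In 6 of the 7 members (all but Rela) neither cKO library had one, and 82.6% of those genes had none in either. A peak in both WT libraries and in neither cKO library was thus seen at 6 of 7 members and at 48.1% of those genes, or 81.9% of the 6857 genes with a peak in both WT libraries, so the members' share is near that of such genes. For Rela, cKO replicate 2 had a peak downstream of the start site (chr19:5638151-5638553) that did not reach it. The peak in cKO replicate 1 near Rela lay at the other end of the gene, and that near Nfkbie beyond its 3′ end. Nfkb1 had a peak at an end in WT replicate 1 alone (chr3:135691595-135692046). Ikbkb had 2 in WT replicate 1 and 1 in cKO replicate 1, which lay outside the gene (chr8:22707187-22707424). These 2 genes had no region in the comparison, so no group value can be set beside their overlapping RNA levels.

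**Figure D4:**
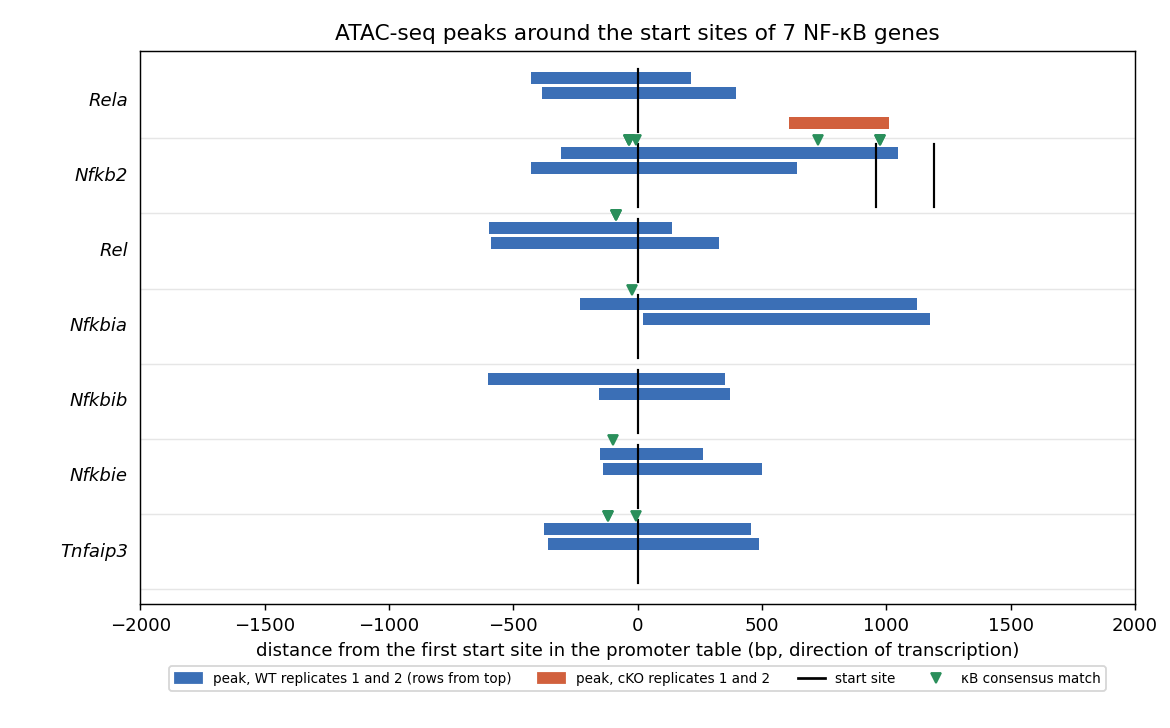
Peaks of the 4 ATAC-seq libraries within 2000 bp of the first start site in the promoter table (x axis, bp in the direction of transcription) for 7 genes, with the 2 WT rows above the 2 cKO rows. WT peaks cover the first start site of every gene, except that of WT replicate 2 at Nfkbia, which begins just downstream, the 1 cKO peak is downstream of the Rela start site, and triangles mark kappaB matches.

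Other genes of the pathway were taken from lists ordered by role, and no gene of any list passed an adjusted p of 0.05. Of 16 ligands and receptors, 15 were tested and 14 had an estimate below 0, against 38.9% of all genes. At an unadjusted p under 0.05, 8 of them were lower under cKO and 1 was higher, against 6.45% and 11.9% of all genes (median log2 difference −1.20). Without WT replicate 2, 14 were tested, 13 were below 0 and 9 were lower, against 31.6% and 7.70% of all genes. With the replicate block 11 were lower, against 8.52%. Cd40lg, the ligand of CD40 made by T cells, was 29.3, 18.2 and 22.4 TPM under WT and 6.44, 1.90 and 5.99 TPM under cKO (log2 difference −2.16, SE 0.43; limma, adjusted p = 0.124). Ltb, a lymphotoxin subunit that signals to p52 and RelB, was 183, 82.4 and 153 TPM under WT and 37.8, 25.5 and 38.6 TPM under cKO (log2 difference −1.95, SE 0.35; limma, adjusted p = 0.124). Lta, the other lymphotoxin, had a log2 difference of −1.52 (SE 0.37; limma, adjusted p = 0.130). These 3 were named because their differences without overlap were the largest of the list. Of its 15 tested genes 8 were lower without overlap and 1 higher, against 7.18% and 18.7% of all genes. Cd40lg, Ltb and Lta are ligands made chiefly by lymphocytes. The T cell and B cell marker sums were also lower under cKO, and the T cell markers Cd2 and Lck had log2 differences of −2.20 and −1.99. The part of lymphocytes in the differences of these ligands was not tested.

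Adaptors and kinases were closer to 0. Of 25 tested, 16 (64%) were below 0, against 38.9% of all genes, and 9 above. At the same unadjusted level 2 (8%) were lower, near the 6.45% of all genes, and 0 were higher, against 11.9% (median log2 difference −0.15). The number lower was 4 with the replicate block, against 8.52% of all genes. It was also 4 without WT replicate 2, against 7.70%, when 19 (76%) were below 0, against 31.6%. Myd88, the adaptor of Toll-like and interleukin-1 receptors, was 43.6, 51.9 and 58.6 TPM under WT and 22.9, 22.6 and 33.4 TPM under cKO (log2 difference −0.95, SE 0.25; limma, adjusted p = 0.145). Tradd, the adaptor of TNF receptor 1, had a log2 difference of −0.91 (SE 0.35; limma, adjusted p = 0.234) and Tab3, a partner of the kinase TAK1, of 0.46 (SE 0.26; limma, adjusted p = 0.389).

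Of the 15 other regulators 11 (73.3%) were below 0, against 38.9% of all genes, and 4 above, with a median log2 difference of −0.20. Unadjusted, 4 were lower and 1 higher, against 6.45% and 11.9% of all genes. Without WT replicate 2 the numbers were 3 and 1, against 7.70% and 11.9%, with 9 below 0, against 31.6%. With the replicate block 6 were lower and 1 higher, against 8.52% and 13.4%. Nfkbid, a nuclear IkB protein, was 32.6, 16.1 and 23.8 TPM under WT and 13.6, 7.13 and 8.72 TPM under cKO (log2 difference −1.21, SE 0.36; limma, adjusted p = 0.163). Zc3h12a, which encodes the ribonuclease Regnase-1, had a log2 difference of −1.07 (SE 0.33; limma, adjusted p = 0.173). Btrc encodes the F-box protein that targets phosphorylated IkB for destruction. It was 30.3, 38.6 and 31.8 TPM under WT and 59.2, 63.7 and 54.9 TPM under cKO, the opposite direction (log2 difference 0.81, SE 0.21; limma, adjusted p = 0.140).

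Of 30 known targets, 28 were tested and 26 (92.9%) were below 0, against 38.9% of all genes. Unadjusted, 15 were lower and 0 higher, against 6.45% and 11.9% of all genes (median log2 difference −1.08). Without WT replicate 2, 18 were lower, against 7.70%, and 26 were again below 0, against 31.6%. With the replicate block 19 were lower, against 8.52%. Tnf, Il1b, Nfkbiz, Bcl3 and Birc3 stand in this list and in another of the lists. Cd74, the invariant chain of MHC class II, was 4690, 2812 and 5186 TPM under WT and 1728, 716 and 1267 TPM under cKO (log2 difference −1.81, SE 0.40; limma, adjusted p = 0.124). Traf1, an adaptor of TNF receptors, had a log2 difference of −1.63 (SE 0.49; limma, adjusted p = 0.170). Cxcl10, a chemokine, was 33.3, 13.5 and 24.7 TPM under WT and 9.02, 6.05 and 5.51 TPM under cKO (log2 difference −1.60, SE 0.38; limma, adjusted p = 0.129). Targets, ligands and receptors therefore had medians further from 0 than the members themselves (−0.62). Beside them, the median log2 difference was −1.95 over T cell markers, −1.67 over B cell markers and −0.74 over myeloid markers. Of the 12 myeloid markers 5 were lower without overlap, against 7.18% of all genes, among them the most abundant, Lyz2 (−1.8) and C1qa (−1.25). The rest overlapped between labels, such as Csf1r (−0.46) and Cx3cr1 (−0.60), and P2ry12 (0.10) was above 0. The median was −0.61 over Müller glia and astrocyte markers, −0.78 over endothelial markers and 1.48 over rod markers. The part of these values in the pathway's differences was not tested.

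**Figure D5:**
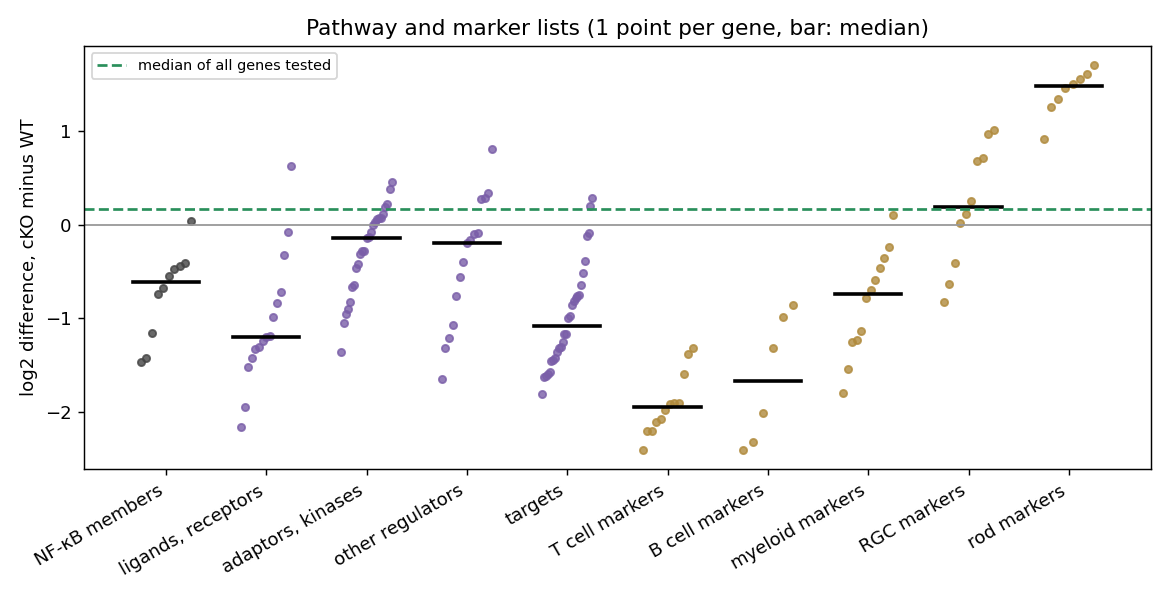
Log2 difference of TPM + 1 between labels (y axis), 1 point per tested gene, with a bar at each median. Shown are the NF-kB members, the other pathway lists and the T cell, B cell, myeloid, RGC and rod marker lists. The bars of the members (−0.62), ligands and receptors (−1.20) and targets (−1.08) lie below 0, adaptors and kinases (−0.15) are closer to 0 and to the dashed median of all genes (0.16), with T cell markers (−1.95) lowest and rod markers (1.48) highest.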

How the data were processed

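RNA-seq (3 libraries labelled WT, 3 labelled cKO) and ATAC-seq (2 and 2) were analysed from deposited tables. Per the submitters' notes and the study's methods, reads were quantified with Salmon 1.0.0 and deposited by the authors as TPM per gene. ATAC-seq reads were aligned to GRCm38 with Bowtie2 2.3.5.1, peaks were called per library with MACS2 2.2.5, and the authors deposited log2 mean normalized reads per region and label from DiffBind, pooled over libraries. Columns of the authors' own comparisons (fold changes, p-values; DESeq2 1.26.0 for RNA) were not used. Depth is unknown, since TPM and pooled means keep none.

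TPM were compared as log2(TPM + 1) with limma 3.58.1 (R 4.3.3; trend, Benjamini-Hochberg over all genes) in 17555 of 53974 genes at 1 TPM or more in at least 3 libraries, and single genes with a two-sided exact permutation test (smallest p 0.1). Fold changes on this scale understate those of low genes. The fit was tested on simulated data. ATAC-seq values were described without a test. Peaks or regions within 1000 bp of an end, overlapping by at least 1 bp, were assigned to genes by RefSeq (GRCm38.p6) positions, available for 15518 tested genes. Promoter sequences are from RefSeq.

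Replicates are separate samples per the labels. Deviations of same-numbered libraries from their group means correlated at 0.334, 0.101 and 0.425. Those of differently numbered libraries correlated at −0.386 to 0.193, so the ranges overlapped and a pairing by number is uncertain. The numbers were used to pair the samples in the replicate block alone, and the main fit was unpaired. Such a pairing comes from the data and not from the labels. The members and lists were chosen with earlier results of these data known. The text names all 10 members, Arid1a, Chuk, Ikbkg, from each other pathway list the 3 genes with the largest difference without overlap, the 3 genes most like Rel, Relb, Nfkbia and Ikbkb, and leading markers. Pou4f2, Rbpms, other markers beyond the leading ones and the genes shared by lists were named after their values were seen. Alternatives were the pseudocount (0.1), the filter (none; mean TPM of at least 5), scaling, the block, no trend, leaving out each library, the window (3000 bp, start alone) and the fold or overlap required.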

Additional observations from a re-analysis of the deposited data

How the results depend on the processing

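Of 120 single-gene RNA values under 12 alternatives, 116 kept their direction and their side of the threshold, and none reached an adjusted p of 0.05 (limma; lowest 0.0633, Nfkbia with the replicate block). The 4 that turned were the differences of Ikbkb after scaling (−0.13), without WT replicate 2 (−0.19) and without cKO replicate 3 (−0.08), and of Rel without WT replicate 3 (0.070). With 1 library left out these 2 differences ran from −0.19 to 0.23 and from −1.04 to 0.070. The number of members lower at an unadjusted p under 0.05 was 3. It was 5 with no filter, 5 after scaling and 5 with the replicate block, when 4.06%, 9.54% and 8.52% of all genes were, and 2 to 6 when 1 library was left out, when 4.12% to 7.70% were. Of the adaptors and kinases 4 were lower with the replicate block and 4 without WT replicate 2, alternatives chosen after seeing the data. The block moved no other count here by over 1.5 times. The median difference of the members was −0.97 to −0.49 with 1 library left out, the former without WT replicate 2. The number of members whose ranges did not overlap was 9 without WT replicate 2, an alternative chosen after seeing the data. Members with a peak were 0 in cKO replicate 1 at start sites alone and 3 in cKO replicate 2 within 3000 bp. The cause was not tested.

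For ATAC-seq, no paired analysis was possible because 1 pooled value stands for each label. Depth is unknown, so values near 0 TPM cannot be told from too few reads, and 3 libraries per label limit the RNA test.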

Other observations

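Inside the gene bodies, more than 1000 bp from either end, the ATAC-seq peaks of the 10 genes were mixed. Nfkb2 had 1 and 1 peaks in the WT libraries and 0 and 0 in those labelled cKO. These are the peaks at its first start site described above, and its ends had none. Tnfaip3, with 1 and 0 against 0 and 0, had the same direction as at its ends. Rel, whose start site had a peak in both WT libraries and in neither cKO library, had 3 peaks within its body in cKO replicate 2 and 0 in cKO replicate 1, against 1 in WT replicate 1 and 0 in WT replicate 2. The body of Nfkb1, the longest of the 10 genes (105 kb without the ends), held 4 and 2 peaks in the WT libraries and 4 and 3 in the cKO libraries. Ikbkb held 2 and 1 against 0 and 3, Rela 0 and 1 against 0 and 1, and Relb 0 and 0 against 0 and 1. Rela had the only other member region inside a body besides that of Nfkb2 (chr19:5640726-5641229). Its mean reads were 5.43 under WT and 7.31 under cKO (log2 difference 0.43), the opposite direction to the Rela start site (−2.04), with no test possible on pooled values. The bodies of Nfkbia, Nfkbib and Nfkbie held no peak in any of the 4 libraries.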
